A study of Mus musculus with 18 samples.

Results

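The receptors and ligands of the common gamma-chain cytokines were followed across 6 groups of mouse thymus samples through all array probes whose gene name was one of 10 members. These were 8 receptor genes (Il2ra, Il2rb, Il2rg, Il4ra, Il7r, Il9r, Il15ra and Il21r) and 2 ligand genes (Il7 and Il15), represented by 21 probes of the 43426 non-control probes and by 10 of 25888 gene names. The C57BL/6 mice had been injected either with a monoclonal antibody that binds the Notch ligand DLL4 or with an isotype control, and were killed 2 weeks later. RNA of 18 samples was measured on 1-colour Agilent mouse arrays, 1 array per sample. The groups were anti-DLL4 thymocytes (3 arrays) and control thymocytes (4), anti-DLL4 DN cells (3) and control DN cells (3), and anti-DLL4 DN1 cells (3) and control DN1 cells (2). DN cells were sorted as lacking surface CD4 and CD8, and DN1 cells in addition as CD44+ and CD25-. CD25 is the protein of Il2ra, so the level of Il2ra in DN1 cells may be set in part by the sort, which was not tested. The dose and the age of the mice are not given in the sources used here. The study describes 4 animals per antibody and does not tie samples to animals, so the p-values measure the spread between these samples, which may be partly technical.

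The common gamma chain, the product of Il2rg, is shared by the receptors for IL-2, IL-4, IL-7, IL-9, IL-15 and IL-21. It pairs with a chain specific to the cytokine, signals through JAK1 and JAK3 to STAT proteins, and supports the survival and growth of lymphocytes. In the thymus, IL-7 from stromal cells sustains early T-cell precursors that carry the IL-7 receptor, and IL-15, presented on the chain encoded by Il15ra, supports natural killer cells and other lymphocytes with the beta chain encoded by Il2rb.

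The probes that carry the differences described here are named below with their first 30 bases, 5′ to 3′, because for several genes the probes gave different answers. The positions are those of the array files, on the mm8 build. The Il2rb probe A_51_P286496 lay at chr15:78307934-78307993 and the Il7r probe A_51_P196695 at chr15:9450946-9451005, both on the minus strand, and the Il4ra probe A_51_P464478 lay at chr7:125368771-125368830 on the plus strand. The Il7 probe A_51_P391454 lay at chr3:7556280-7556339 on the minus strand. Of the 3 Il15 probes, all on the minus strand, A_51_P340788 lay at chr8:85227461-85227520, A_52_P15461 at chr8:85230251-85230310 and A_52_P383066 at chr8:85239084-85239143, which is 11623 bases upstream of the most 3′ of them.
Il2rb A_51_P286496: gtctattctggggtgggtttttctgtgaag
Il7r A_51_P196695: atcaatcaactatgtttggatccagggaat
Il4ra A_51_P464478: cccaaagtcactgccagttacccacatatg
Il7 A_51_P391454: aagatagaaatgcacttattccaaagatac
Il15 A_51_P340788: gaaatcttggaaatgaagagaggaaaagag
Il15 A_52_P15461: tgcaggttattttacatgagtacagtaaca
Il15 A_52_P383066: gttccgttgcttatctactcagtgagacaa

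Other probes overlapped or spanned a gap in the genome. The last 30 bases of Il15ra probe A_51_P202292 and the first 30 of probe A_52_P55902 are shown with the 17 bases they share in capitals, so these probes are not independent readings of the gene. They span 6987 and 6502 bases of chromosome 2, at chr2:11641451-11648437 and chr2:11641979-11648480 on the plus strand. One probe each of Il2ra (1565 bases), Il2rg (514 bases) and Il7 (1104 bases) also covered far more genome than its own 60 bases. Il2ra probe A_51_P118945 covered 62 bases and the Il9r probe 61. Which exon or untranslated region each probe lies in was not looked up, since no mm8 annotation was used here.
Il15ra A_51_P202292: tccaaaatgacgaAAGTGGCCATCTCTACA
Il15ra A_52_P55902: AAGTGGCCATCTCTACAtcggtcctcttgg

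Levels are the log2 processed signal of a probe, scaled by subtracting the 75th percentile of its array, so a level of 0 marks that percentile on each array, and levels of different probes are not compared. The 75th percentile itself was 741.3 to 1076.8 on anti-DLL4 DN arrays, against 260.2 to 675.5 on control DN arrays, and ranged from 442.8 to 4295.4 on the other arrays. The part of this difference in array strength in the DN results was not tested. Control DN arrays agreed least among themselves, with correlations over all probes as low as 0.78, against 0.853 or more in every other group. Cd8a, coding for a chain of CD8, was well above background on all DN and DN1 arrays, although the sort took cells without surface CD8. Its mean level in DN cells was 0.31 after anti-DLL4 and 3.09 after isotype control. In DN1 cells it was 0.45 after anti-DLL4 and 4.10 after isotype control, and for thymocytes 5.96 after anti-DLL4 and 6.86 after isotype control. Cd44 averaged 2.73 in control DN1 cells and 0.35 in control DN cells. After anti-DLL4 it averaged 2.05 in DN1 cells, 1.90 in DN cells and 2.78 in thymocytes, so its level did not set anti-DLL4 DN1 cells apart.

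Every member had at least one probe, and 5 members had several. Tests were made with limma over every probe seen well above background in 2 or more arrays of a comparison, and a probe was called at an adjusted p under 0.05. The median of all tested probes differed between antibodies, by -0.42 in thymocytes, -0.65 in DN cells and -0.03 in DN1 cells, and each log2 difference below is given relative to that median, with its standard error (SE), while the calls rest on the values before this shift. In anti-DLL4 thymocytes, 3 of the 18 member probes tested were higher and 0 were lower (1 of the 3, for Il7, met the filter only through the anti-DLL4 arrays), while 0.925% of all 34920 probes tested were called higher and 0.232% lower. Groups did not overlap for 5 of these 18 member probes, and for 13.6% of all probes. In anti-DLL4 DN cells, 5 of 16 member probes were higher and 0 were lower, while 2.33% of 34253 probes were called higher and 1.39% lower. Of the 5, 2 were probes of Il15, and of these A_52_P15461 met the filter only through the anti-DLL4 arrays. Groups did not overlap for 8 of the 16, and for 31.4% of all probes. In anti-DLL4 DN1 cells none of 18 member probes was called, while 0.109% of 36661 probes were, and 5 had an unadjusted p under 0.05, as had 5.22% of all probes. Groups did not overlap for 8 of the 18, and for 18.1% of all probes. The median log2 difference of the member probes tested was 0.47 in thymocytes, 0.66 in DN cells and 0.19 in DN1 cells, where all probes tested have a median of 0 by construction. Bulk RNA cannot tell a larger share of cells of one type from more RNA per cell.

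**Figure D1:**
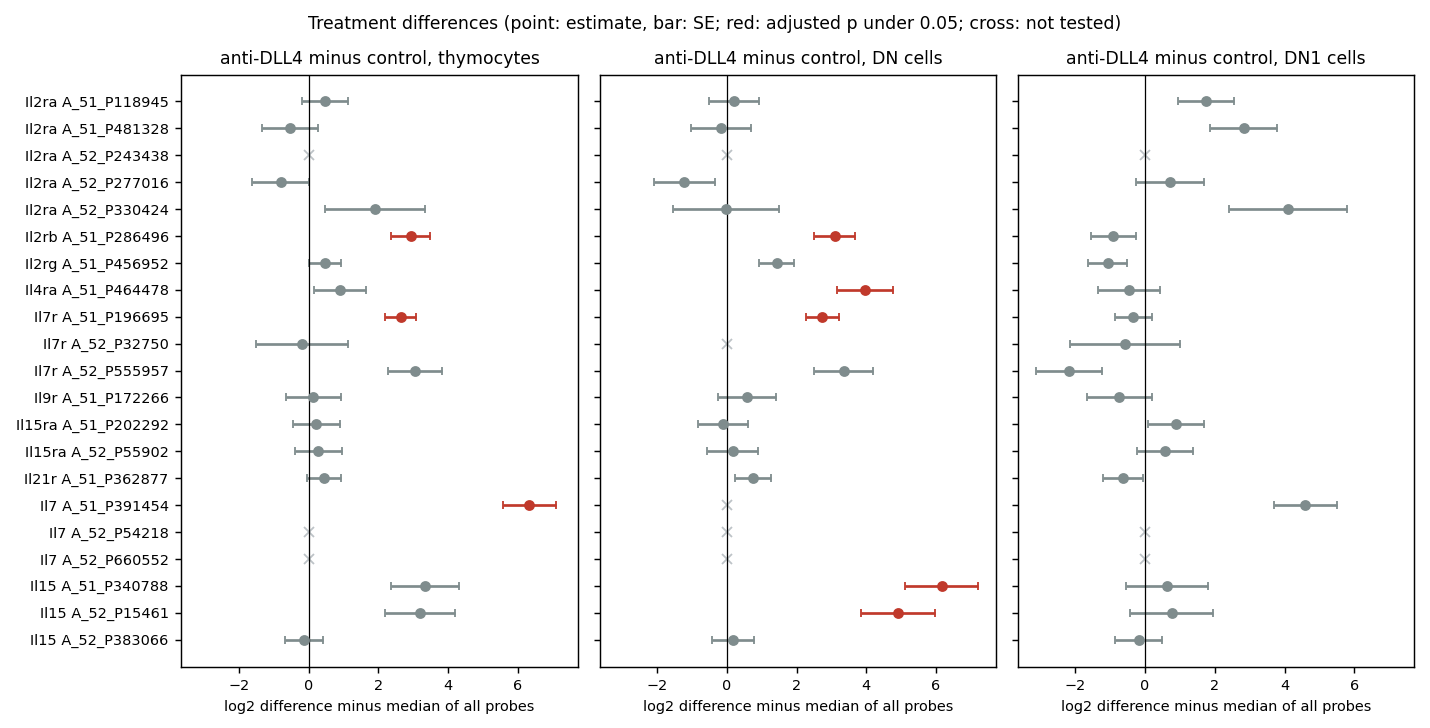
Log2 difference between anti-DLL4 and control arrays, minus the median of all probes (x axis), for the 21 member probes (y axis) in thymocytes, DN cells and DN1 cells. Points are estimates and bars their SE, red marks an adjusted p under 0.05 and a cross a probe that was not tested there. Red points stand for Il2rb, Il7r and Il7 in thymocytes and for Il2rb, Il4ra, Il7r and Il15 in DN cells, and no DN1 point is red. Il7 points are set against controls below background and do not give a measured size.

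Il2rb, the beta chain shared by the IL-2 and IL-15 receptors, was higher after anti-DLL4 in thymocytes and in DN cells. Its level was 5.58, 5.51 and 6.15 in anti-DLL4 thymocytes, against 3.88, 3.57, 3.22 and 2.32 in control thymocytes. The anti-DLL4 DN arrays read 5.12, 4.89 and 4.71, and the control DN arrays 1.81, 2.45 and 3.14. Every anti-DLL4 array lay above every control array in both populations. The log2 difference was 2.92 ± 0.55 in thymocytes (SE, 7.59-fold, adjusted p = 0.0371) and 3.09 ± 0.59 in DN cells (8.51-fold, adjusted p = 0.0314). In DN1 cells the levels were 3.22, 5.18 and 3.53 after anti-DLL4 treatment and 4.80 and 5.04 after isotype control, so that the groups overlapped, and the log2 difference of -0.91 ± 0.66 did not pass the test (adjusted p = 1). Within the 3 slides that held thymocytes of both antibodies the difference was 2.85, 2.71 and 2.60, and within the 1 such slide for DN cells it was 4.02. Under a slide block the log2 differences were 2.99 in thymocytes and 2.99 in DN cells, and both calls were lost (adjusted p = 0.129 and 0.113). The thymocyte call was also lost in a fit of the compared groups alone (adjusted p = 0.136), as was the DN call (adjusted p = 0.1). The thymocyte call was lost, at adjusted p of 0.0643 to 0.107, when any one anti-DLL4 thymocyte array or control thymocyte array 2, 3 or 4 was left out, and at 0.0543 to 0.0601 without either control DN1 array, anti-DLL4 DN array 1 or 3, or control DN array 2. The DN call was lost without any one DN array other than control 3 (adjusted p up to 0.125).

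Markers of natural killer and innate lymphoid cells lay on the same side as Il2rb. The mean level of the 10 markers was 2.59 to 2.80 over anti-DLL4 thymocyte arrays and -1.66 to 0.62 over control ones. For DN cells the ranges were 1.48 to 2.37 after anti-DLL4 and -0.93 to -0.48 after isotype control, and for DN1 cells 0.43 to 1.86 after anti-DLL4 and 1.78 to 2.06 after isotype control. Of the 10 markers, 2 were called higher in anti-DLL4 thymocytes (Gzmb and Klrd1), 3 in anti-DLL4 DN cells (Gzmb, Klrd1 and Klrk1) and 0 in DN1 cells, and every marker was above background on some array of each group. Of all probes tested, 0.925% were called higher in thymocytes and 2.33% in DN cells. Ncr1, an activating receptor that marks natural killer cells, had a mean level of -3.17 over anti-DLL4 thymocyte arrays and -5.39 over control ones. In DN cells its mean was -2.57 after anti-DLL4 and -4.84 after isotype control. In DN1 cells it was -3.35 after anti-DLL4 and -4.25 after isotype control, the opposite direction to Il2rb there. Ncr1 was called in none of these. The part of these cells in the Il2rb difference was not tested.

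Il7r, the alpha chain of the IL-7 receptor, was higher after anti-DLL4 in the same populations by one of its 3 probes. Probe A_51_P196695 stood at 4.95, 5.59 and 5.81 in anti-DLL4 thymocytes, against 3.72, 3.39, 3.00 and 2.81 in control thymocytes. The same probe stood at 4.78, 3.92 and 5.11 in anti-DLL4 DN cells, against 2.31, 2.53 and 2.67 in control DN cells. No anti-DLL4 array fell within the control range in these populations. The log2 difference was 2.64 ± 0.45 in thymocytes (SE, 6.23-fold, adjusted p = 0.0245) and 2.74 ± 0.48 in DN cells (6.69-fold, adjusted p = 0.0239). In DN1 cells the probe stood at 4.14, 4.20 and 4.95 with anti-DLL4 and at 4.88 and 4.72 in controls, a log2 difference of -0.34 ± 0.53 between overlapping groups (adjusted p = 1). The thymocyte call was lost without anti-DLL4 thymocyte array 2 or 3 or control thymocyte array 3 (adjusted p up to 0.107), with the slide block (adjusted p = 0.101) and in a fit of the compared groups alone (adjusted p = 0.146). The DN call was lost without anti-DLL4 DN array 1 or 3 or control DN array 1 or 2 (adjusted p up to 0.111), with the slide block (adjusted p = 0.0975) and in a fit of those groups alone (adjusted p = 0.13).

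The second Il7r probe, A_52_P555957, which lies 4967 bases further upstream, had differences of similar size that did not pass the test. Its levels were -0.13, -0.04 and 1.69 in anti-DLL4 thymocytes, against -1.51, -3.86, -1.96 and -1.16 for control thymocytes. In anti-DLL4 DN cells they were -1.15, 0.27 and 0.09, and in control DN cells -3.66, -3.52 and -1.74. Neither pair of groups overlapped. The log2 difference was 3.05 ± 0.79 in thymocytes (adjusted p = 0.121) and 3.35 ± 0.84 in DN cells (adjusted p = 0.0795), and the DN difference was called without control DN array 3 (4.03, adjusted p = 0.0207). In DN1 cells this probe stood at -2.97, -2.17 and -0.44 with anti-DLL4 and at 0.50 and 0.21 in controls, with a log2 difference of -2.19 ± 0.94 (adjusted p = 0.82). The third probe, A_52_P32750, was well above background on only 7 of 18 arrays and gave a log2 difference of -0.19 ± 1.32 in thymocytes. Across the 18 arrays the first and second probes had a Pearson correlation of 0.77, and the third had correlations of 0.093 and -0.048 with them.

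Il7r is also carried by B-cell precursors and innate lymphoid cells, and B-cell markers moved in the same comparisons. The mean of 8 B-cell markers ranged over 0.81 to 2.22 for anti-DLL4 thymocyte arrays and -2.42 to -1.63 for control ones. Anti-DLL4 DN arrays had 3.49 to 4.06 and control DN arrays -0.79 to 0.10. For DN1 cells the ranges were 3.45 to 3.75 after anti-DLL4 and 2.12 to 3.19 after isotype control. These DN1 ranges did not overlap, while the log2 difference of Il7r probe A_51_P196695 was -0.34 there. Of the 8 markers, 5 were called higher in anti-DLL4 thymocytes, 7 in anti-DLL4 DN cells and 0 in anti-DLL4 DN1 cells. The shares of all probes called higher were 0.925% in thymocytes and 2.33% in DN cells. Of the 8 markers only Pax5 had no array above background in a group, the control thymocytes. The mean level of 8 early T-cell markers was 1.39 to 3.06 in anti-DLL4 DN cells and 4.08 to 4.40 in control DN cells. Of the 8, 2 were called lower, as were 1.39% of all probes tested. The 10 natural killer and innate lymphoid markers had a median log2 difference of 3.35 in thymocytes, 2.96 in DN cells and -0.81 in DN1 cells. The part of any of these cell types in the Il7r difference was not tested.

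Il4ra, the specific chain of the IL-4 receptor, was higher in anti-DLL4 DN cells. Its level was 2.32, 4.32 and 2.48 in anti-DLL4 DN cells, against -0.88, -0.55 and 0.59 in control DN cells. The control DN arrays were the lowest 3 of the 18 arrays. The log2 difference was 3.96 ± 0.79 (SE, 15.6-fold, adjusted p = 0.0311), and it was lost as a call without any one DN array other than control 3 (adjusted p up to 0.121). Leaving out 1 DN array gave log2 differences of 3.26, without anti-DLL4 array 2, to 4.46, without control array 3, and leaving out control arrays 1 and 2 together gave 2.78 (adjusted p = 0.602). A slide block gave 5.55 (adjusted p = 0.0203). In thymocytes Il4ra stood at 3.29, 3.80 and 3.00 with anti-DLL4 and at 1.93, 3.04, 2.42 and 4.14 in controls, and the log2 difference of 0.90 ± 0.74 did not pass the test (adjusted p = 0.772). In DN1 cells it stood at 0.88, 3.98 and 2.46 with anti-DLL4 and at 2.87 and 3.00 in controls, with a log2 difference of -0.46 ± 0.89 (adjusted p = 1).

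**Figure D2:**
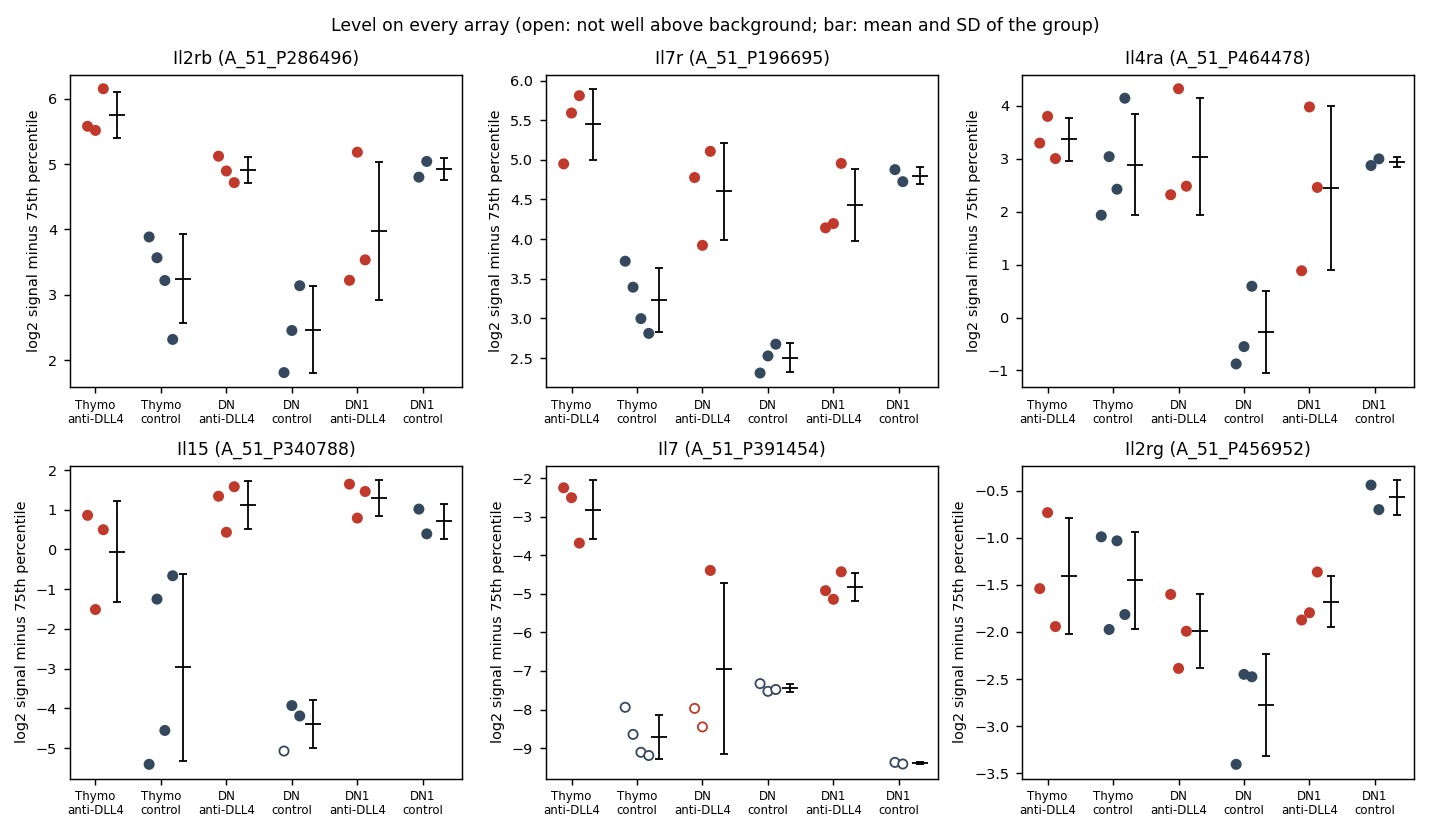
Level of 6 member probes on every array, as log2 signal minus the array's 75th percentile (y axis), in the 6 groups (x axis; anti-DLL4 in red, control in blue). Open points were not well above background and bars give the mean and SD of a group. Il2rb and Il7r separate anti-DLL4 from control arrays in thymocytes and DN cells and overlap in DN1 cells, and Il7 is above background in thymocytes and DN1 cells only with anti-DLL4.

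Il15, the ligand that signals through the Il2rb chain, was higher in anti-DLL4 DN cells by 2 of its 3 probes. Probe A_51_P340788 stood at 1.34, 0.43 and 1.58 in anti-DLL4 DN cells, against -5.08, -3.93 and -4.19 in control DN cells, where array 1 was not well above background. Probe A_52_P15461 stood at -1.95, -3.11 and -1.92 with anti-DLL4 and at -4.49, -7.67 and -7.64 in controls, of which only array 1 was well above background. Both probes separated the groups. The log2 difference was 6.16 ± 1.04 for the first (SE, 71.7-fold, adjusted p = 0.00788) and 4.92 ± 1.06 for the second (adjusted p = 0.0368), whose size is uncertain because it is set against a control group measured on 1 of 3 arrays and because its anti-DLL4 arrays alone met the filter. The first call held when any 1 array was left out, with values of 5.69 to 6.44, while the second was lost without any one anti-DLL4 DN array or control DN array 2 (adjusted p up to 0.151), with values of 4.20 to 5.83 when 1 DN array was left out. With the normexp background correction the differences were 3.76 (adjusted p = 0.0832) and 0.94 (adjusted p = 0.677).

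The third Il15 probe, A_52_P383066, did not follow the other two. It stood at -1.92, -1.11 and -1.10 in anti-DLL4 DN cells and at -0.02, -0.81 and -1.90 in control DN cells, a log2 difference of 0.18 ± 0.59 between overlapping groups (adjusted p = 0.619). Across the 18 arrays the first and second probes had a correlation of 0.879 with each other, and the third had correlations of -0.378 and -0.149 with them. In thymocytes the first probe stood at 0.86, -1.51 and 0.50 with anti-DLL4 and at -5.41, -1.25, -4.56 and -0.66 in controls. Control arrays 2 and 4 lay above the lowest anti-DLL4 array, and the log2 difference of 3.34 ± 0.97 did not pass the test (adjusted p = 0.17). Within slides it was 7.43, 0.50 and 4.72. In DN1 cells the first probe stood at 1.65, 0.79 and 1.46 with anti-DLL4 and at 1.02 and 0.39 in controls, with a log2 difference of 0.63 ± 1.16 (adjusted p = 1).

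Dendritic cells, monocytes and macrophages are sources of IL-15, and their markers were also higher in anti-DLL4 DN cells. The mean of 8 conventional dendritic markers was 1.22 to 1.56 in anti-DLL4 DN cells and -1.48 to -1.02 in control DN cells, with 5 of 8 called higher. For 6 monocyte and macrophage markers it was 0.45 to 0.98 after anti-DLL4 and -1.86 to -0.93 after isotype control, with 3 of 6 called higher. The share of all probes called higher in this comparison was 2.33%. All of these markers were above background on some array of each group, and their part in the Il15 difference was not tested.

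**Figure D3:**
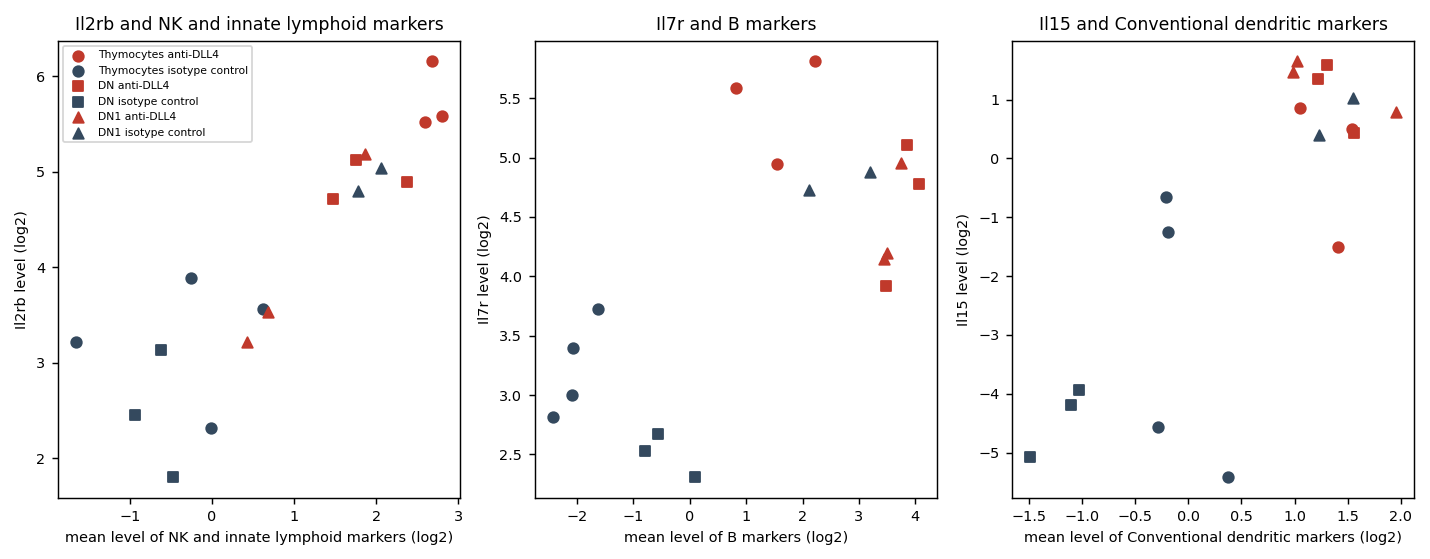
Level of Il2rb, Il7r (probe A_51_P196695) and Il15 (probe A_51_P340788) on each array (y axes, log2) against the mean level of 10 natural killer and innate lymphoid, 8 B-cell and 8 conventional dendritic markers (x axes, log2). Circles are thymocytes, squares DN cells and triangles DN1 cells, in red for anti-DLL4 and in blue for control. Control thymocyte and control DN arrays lie at the lower left of each panel, apart from control thymocyte arrays 2 and 4 for Il15 and joined by anti-DLL4 DN1 arrays 1 and 3 for Il2rb, and both control DN1 arrays lie among the other anti-DLL4 arrays.

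Il7, the ligand of the IL-7 receptor, was well above background on more than 1 array by only 1 of its 3 probes, and there only on anti-DLL4 arrays. Probe A_51_P391454 stood at -2.25, -2.51 and -3.68 in anti-DLL4 thymocytes, all well above background, against -7.94, -8.64, -9.11 and -9.19 in control thymocytes, none of them well above background. In DN1 cells it stood at -4.92, -5.14 and -4.43 with anti-DLL4, all well above background, and at -9.37 and -9.41 in controls, neither well above background. In DN cells only anti-DLL4 array 3 was well above background, at -4.39, beside -7.97 and -8.45 on the other anti-DLL4 arrays and -7.33, -7.53 and -7.48 on control arrays. The probe was thus seen on 7 of 18 arrays, and too few DN arrays for a test.

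With the main processing, Il7 was at least 18.2-fold higher in anti-DLL4 thymocytes than in control thymocytes (adjusted p = 0.00136). The bound for controls was the lowest signal accepted as above background. The probe entered the test only through the anti-DLL4 arrays, so this p is set against control values below the background limit and is no independent support, and only the bound gives a size. The call held without any 1 array and was lost with the normexp background correction (adjusted p = 0.253). In anti-DLL4 DN1 cells the level of Il7 exceeded that in control DN1 cells at least 7.81-fold by the same kind of bound, without passing the test (adjusted p = 0.0737), to which the same limit applies. Both bounds are those of the main processing. The lowest log2 difference under an alternative was 2.10 in thymocytes and 0.39 in DN1 cells. The other probes gave no second reading, because A_52_P54218 was well above background on 1 array, anti-DLL4 thymocyte array 1, and A_52_P660552 on 0 arrays. Thymic epithelium is the main known source of IL-7 in the thymus, and none of 8 thymic epithelial markers was called in any of the 3 treatment comparisons. The mean of these markers was -0.41 to 0.47 over anti-DLL4 thymocyte arrays and -0.97 to -0.17 over control ones, and the median log2 difference of the list in thymocytes was 1.34. The part of these cells in the Il7 difference was not tested.

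**Figure D4:**
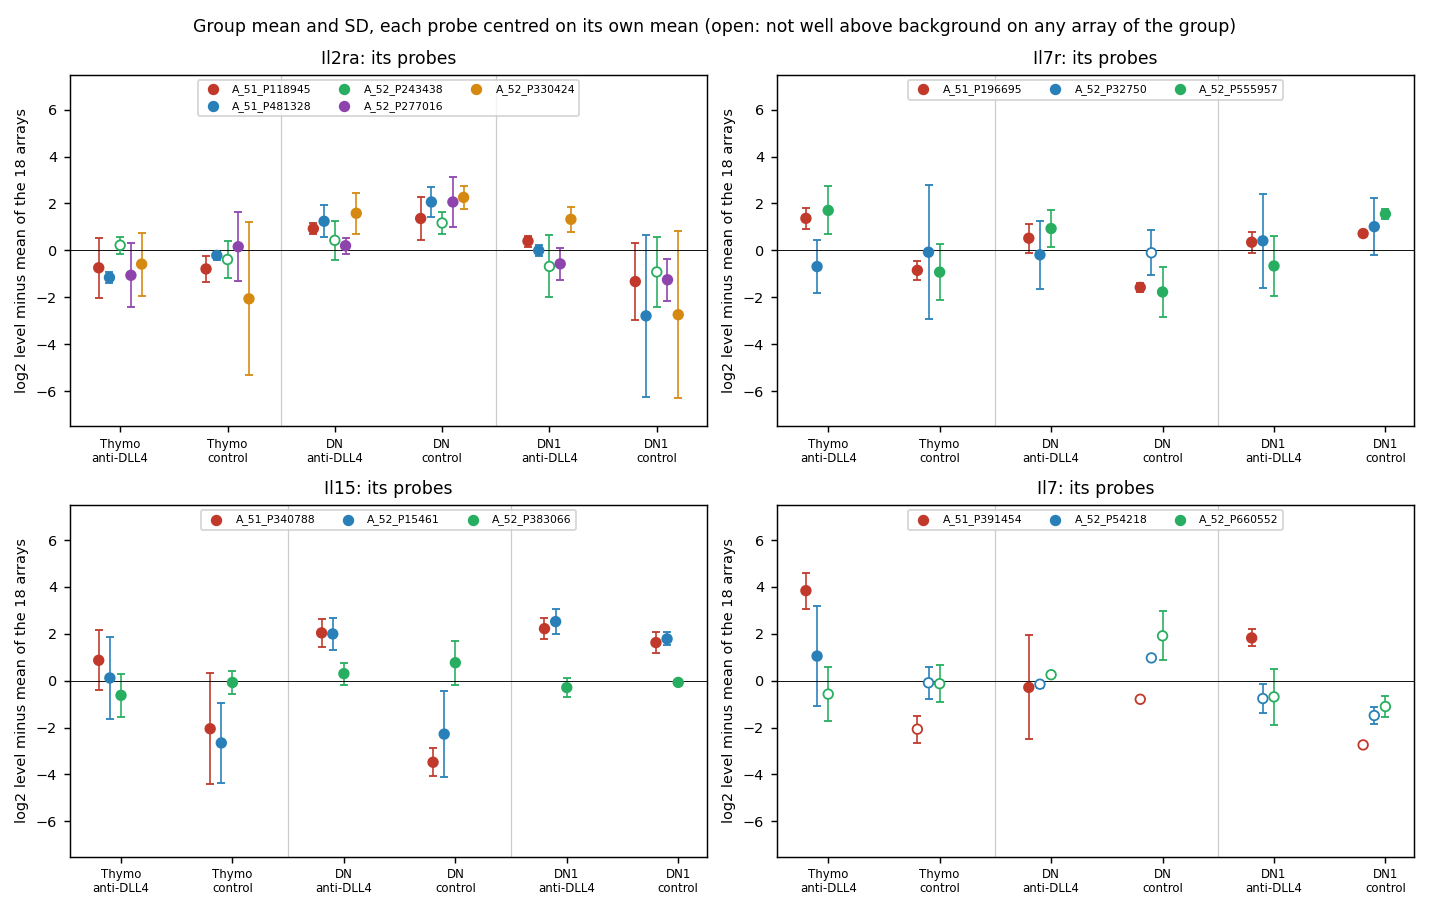
Group mean and SD of each probe of Il2ra, Il7r, Il15 and Il7 (y axis, log2 level minus the probe's own mean over the 18 arrays) in the 6 groups (x axis). Open points mark a probe that no array of the group measured well above background. For Il15, probe A_52_P383066 stays near its mean in every group, while the other 2 probes are lowest in control thymocytes and control DN cells.

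Il2ra, the alpha chain of the IL-2 receptor (CD25), had 5 probes that disagreed, and none was called between antibodies. In thymocytes the 4 probes tested had log2 differences of 0.47, -0.52, -0.80 and 1.90, and in DN cells of 0.21, -0.18, -1.22 and -0.03. Adjusted p in these populations was 0.171 or more. The fifth probe, A_52_P243438, was well above background on 0 of 18 arrays. Across the 18 arrays the most 3′ probe, A_51_P118945, had correlations of 0.821, 0.725 and 0.631 with the other 3 probes that were measured.

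In DN1 cells the Il2ra probes leaned higher with anti-DLL4, and the 2 control arrays differed from each other. Probe A_51_P481328 stood at -2.75, -2.60 and -2.27 with anti-DLL4 and at -7.79 and -2.88 in controls, with a log2 difference of 2.82 ± 0.96 (adjusted p = 0.574). Probe A_52_P330424 stood at -2.40, -3.40 and -3.16 with anti-DLL4 and at -4.54 and -9.57 in controls, with a log2 difference of 4.10 ± 1.70 (adjusted p = 0.8). Control array 1 was the lower one by the first probe and control array 2 by the second. Probes A_51_P118945 and A_52_P277016 gave 1.76 ± 0.80 (adjusted p = 0.939) and 0.71 ± 0.97 (adjusted p = 1). Cells of both antibodies were sorted without surface CD25, and the part of this sort in the Il2ra RNA levels was not tested.

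The remaining receptor chains were not called between antibodies in any population. Il2rg, the common chain itself, stood at -1.54, -0.73 and -1.94 in anti-DLL4 thymocytes and at -0.99, -1.97, -1.03 and -1.82 in control thymocytes. In DN cells it stood at -1.60, -2.39 and -1.99 with anti-DLL4 and at -3.40, -2.45 and -2.48 in controls, and in DN1 cells at -1.87, -1.80 and -1.36 with anti-DLL4 and at -0.44 and -0.70 in controls. It overlapped between antibodies in thymocytes, lay higher with anti-DLL4 in DN cells and lay lower with anti-DLL4 in DN1 cells, with log2 differences of 0.47 ± 0.47 (adjusted p = 0.967), 1.43 ± 0.50 (adjusted p = 0.3) and -1.07 ± 0.56 (adjusted p = 1).

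Il15ra, which presents IL-15 to neighbouring cells, had log2 differences of 0.22 and 0.29 by its overlapping probes in thymocytes. The same probes had -0.12 and 0.16 in DN cells. Their values for DN1 cells were 0.88 and 0.58. Il21r, the specific chain of the IL-21 receptor, had 0.45 ± 0.48 in thymocytes, 0.76 ± 0.51 in DN cells and -0.63 ± 0.58 in DN1 cells. Il9r, the specific chain of the IL-9 receptor, was well above background on 13 of 18 arrays and had 0.14 ± 0.78, 0.57 ± 0.83 and -0.74 ± 0.93 in the same order. Adjusted p was 0.489 or more for each of these in every population. With SEs of 0.48 to 0.93, the absence of a call does not show that these genes were unchanged.

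The differences between populations in the treatment effect were tested as such, and no member probe passed. Of 18 member probes tested in each case, 2 had an unadjusted p under 0.05 for DN cells minus thymocytes, 4 for DN1 cells minus thymocytes and 9 for DN1 minus DN cells, while 8.46%, 6.82% and 11.6% of all probes did. The shares of all probes called were 0.0107%, 0.0893% and 0.137%. Il2rb had a difference of effects of -3.83 ± 0.85 for DN1 cells minus thymocytes (adjusted p = 0.209) and of -3.99 ± 0.88 for DN1 minus DN cells (adjusted p = 0.163). Il15 probe A_51_P340788 had -5.53 ± 1.56 for DN1 minus DN cells (adjusted p = 0.27). The absence of a call in DN1 cells is therefore not shown to differ from the calls in the other populations.

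Without the antibody against DLL4, the member genes also varied between populations. Between control DN1 and control DN cells, 1 of 17 member probes was called higher and 1 lower in DN1 cells, while 0.918% of 36063 probes were called higher and 0.177% lower. An unadjusted p under 0.05 was found for 12 of the 17 and for 19% of all probes. Groups did not overlap for 13 of the 17, and for 37.1% of all probes. Il15 probe A_51_P340788 was higher in control DN1 cells, at 1.02 and 0.39, against -5.08, -3.93 and -4.19 in control DN cells, with a log2 difference of 5.76 ± 1.16 (SE, 54.4-fold, adjusted p = 0.0476). The fold is uncertain, because control DN array 1 was not well above background for this probe. Under the alternatives the log2 difference was as low as 2.96. Il2ra probe A_51_P481328 was lower in control DN1 cells, at -7.79 and -2.88, against -1.01, -0.62 and 0.21 in control DN cells, with a log2 difference of -4.20 ± 0.96 (adjusted p = 0.0228), a difference in the direction of the CD25- sort. Neither call held throughout: Il15 lost it without either control DN1 array or control DN array 1 or 2 (adjusted p up to 0.341) and without 9 arrays of other groups, and Il2ra lost it without control DN1 array 1, where the value was -1.77 (adjusted p = 0.305), or control DN array 2 (adjusted p = 0.0697).

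Of the other receptor chains, Il7r (probes A_51_P196695 and A_52_P555957), Il2rg, Il2rb and Il4ra had higher levels on every control DN1 array than on any control DN array, without passing the test. Il7r probe A_52_P32750 overlapped between these groups. Il9r was separated only narrowly, at -4.90 on the lower control DN1 array and -4.92 on the highest control DN array, without passing the test. Il15ra had log2 differences of -1.43 and -0.41 by its overlapping probes. Il7r probe A_51_P196695 stood at 4.88 and 4.72 in control DN1 cells, against 2.31, 2.53 and 2.67 in control DN cells, with a log2 difference of 2.96 ± 0.53 (adjusted p = 0.051). Il2rg gave 2.87 ± 0.56 (adjusted p = 0.0726), Il2rb 3.11 ± 0.66 (adjusted p = 0.0941) and Il4ra 3.87 ± 0.89 (adjusted p = 0.107). Without control DN array 3, the number of member probes called in this comparison was 7. Between control DN cells and control thymocytes none of 16 member probes was called, while 1.13% of 35878 probes were. An unadjusted p under 0.05 was found for 6 of the 16 and for 19.8% of all probes. Groups did not overlap for 6 of the 16, and for 14% of all probes. Il4ra gave -3.52 ± 0.74 there (adjusted p = 0.0529), and the 4 measured Il2ra probes gave 1.80, 1.92, 1.56 and 3.97 (adjusted p of 0.121 or more). These comparisons share the control DN arrays with the treatment comparison in DN cells, so that low control DN levels of Il4ra and Il15 enter each of them.

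Other genes of the pathway were read from a list of 23 genes for further ligands, shared chains, kinases, STAT proteins, feedback inhibitors and survival genes. Of the 20 tested in thymocytes, 3 were called higher with anti-DLL4 and 0 lower, while 0.925% of all probes tested were called higher and 0.232% lower. Whether the pathway calls hold when an array is left out, or under the other alternatives, was not tested. Socs2, a feedback inhibitor induced by STAT5, stood at 2.17, 2.29 and 4.11 in anti-DLL4 thymocytes, against -0.97, -2.63, -0.78 and -1.14 in control thymocytes, with a log2 difference of 4.66 ± 0.70 (adjusted p = 0.00667). Il4, the ligand of the Il4ra chain, stood at 1.98, 1.75 and 2.62 with anti-DLL4 and at -2.95, -5.87, 0.36 and -2.17 in controls, with 5.20 ± 1.04 (adjusted p = 0.0357). The groups did not overlap for either gene. Il13ra1, which pairs with the Il4ra chain, stood at -2.22, -1.03 and -1.17 with anti-DLL4 and at -7.26, -5.18, -8.11 and -6.33 in controls, of which arrays 1 and 3 were not well above background, with 5.67 ± 1.15 (adjusted p = 0.0377). The median log2 difference of the list was 1.02.

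In DN cells, 2 of 21 pathway genes were called higher with anti-DLL4 and 0 lower, and the median of the list was 1.18. Of all probes tested there, 2.33% were called higher and 1.39% lower. Bcl2l1, which codes for the survival protein BCL-XL, stood at 0.80, 0.30 and 0.99 in anti-DLL4 DN cells, against -1.86, -1.40 and -0.51 in control DN cells, with a log2 difference of 2.60 ± 0.47 (adjusted p = 0.0315). Pim2, a survival kinase induced by cytokines, stood at 2.41, 1.10 and 1.85 with anti-DLL4 and at -0.44, -0.19 and 0.07 in controls, with 2.62 ± 0.49 (adjusted p = 0.0353). Both genes separated the antibodies. Bcl2l1 was also lower in control DN cells than in control thymocytes, by a log2 difference of -2.82 ± 0.44 (adjusted p = 0.014). No pathway gene was called in DN1 cells, where the median was -0.34, or between control DN1 and control DN cells, and the kinases Jak1 and Jak3 and the STAT genes of the list were called in no comparison.

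Among 28026 probes with a gene symbol that were well above background on at least 9 arrays, those most like 3 receptor probes over the 18 arrays were picked by Pearson correlation, as a description in which group differences and array strength are shared. Il2rb was most like Cxcr3 (0.921), Ctsw (0.916) and Ifitm10 (0.91). Il7r probe A_51_P196695 was most like Klrd1 (0.925), Gzmb (0.901) and Klra16 (0.898), of which Klrd1 and Klra16 are receptors of the natural killer families and Gzmb codes for a granule protease of cytotoxic cells. Il2ra probe A_51_P118945 was most like 2 probes of Uhrf1 (0.855 and 0.851), a gene needed to maintain DNA methylation in dividing cells, and 1 of Pabpn1 (0.841).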

How the data were processed

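Each array's deposited values are, per the file headers, background-subtracted Cy3 intensity not normalized between arrays, from Agilent Feature Extraction (version 9.5 per the submitters' processing notes). RNA was amplified in 2 rounds, per the labels' protocols. A further deposited file for all samples holds a linear ratio per probe and array whose log2 values ran in the direction of the intensity (69.7% to 70.6% of values within 0.05 of the scanner values centred per probe), with column medians of 0.638 to 1.423 and the authors' centring otherwise unknown. It was used only as an alternative. Intensities were put on the log2 scale and the 75th percentile of non-control spots on each array was subtracted, outlier spots were left out and spots of 1 probe averaged. One model of 6 group means was fitted with limma 3.58.1 (R 4.3.3, data.table, version 1.17.8) on probes well above background on at least 2 of 18 arrays, with two-sided p-values adjusted by Benjamini-Hochberg over all probes tested in a comparison. The procedure was tested on simulated data. All probes of the 10 members, pathway genes past the threshold, and the 3 probes most like Il2rb, Il7r and Il2ra were named. Pathway and marker genes were read from their probe of highest mean. The members and lists were chosen with earlier results of these data known. At least N-fold bounds set the bright group's mean against, for every dim array, either the lowest signal well above background or the probe's signal, whichever was higher. Control thymocytes number 4 by the labels, all used, and 3 by the series description. The number of arrays limits the precision. Alternatives were other scalings, background correction, filters, blocks for slide and replicate number, a fit of the compared groups alone, the authors' ratios and leaving out arrays.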

Additional observations from a re-analysis of the deposited data

Results flagged for a closer look

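One member probe had an array far from the rest of its group. Il2ra probe A_52_P330424 stood at -1.54 on control thymocyte array 3 and at -7.87, -8.65 and -7.45 on control arrays 1, 2 and 4, which were not well above background. The gap to the nearest array was 0.831 of the group's range, just above Dixon's critical value for 4 samples. Only the control thymocytes have the 4 arrays this check needs. It was made there for each member probe well above background on any of them. Chance flags about 1 in 20 such checks, so a single flag among them may be due to chance. The other Il2ra probes did not set array 3 apart. Without this array the difference of A_52_P330424 between control DN cells and control thymocytes was 5.64 (adjusted p = 0.0239), against 3.97 with it.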

How the results depend on the processing

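No called member difference changed sign under any alternative. Among member values under all alternatives, 3624 kept direction and call, 81 lost the call, 34 gained one and 143 changed sign with no call in either. Member probes called fell to 1 of 3 in thymocytes with normexp background, the slide block, the replicate block or a fit of the compared groups alone (Il7r with normexp, Il7 in the others). In DN cells 5 became 3 with normexp, 2 with the slide block (Il4ra and Il15 probe A_51_P340788), 1 in a fit of these groups alone and 0 without control DN arrays 1 and 2, the dimmest (Il2rb 2.10, Il7r 2.26, Il4ra 2.78, Il15 5.64 by both probes). Between control DN cells and thymocytes 0 became 1 with quantile scaling or a stricter filter and 3 with normexp. Between control DN1 and DN cells 2 became 6 with quantile scaling, 1 with scaling to probes above background everywhere or the replicate block, and 0 with normexp, the slide block, these groups alone or without control DN arrays 1 and 2. The difference of effects DN1 minus thymocytes had 1 with quantile scaling. Leaving out 1 array gave 1 to 3 in thymocytes, 1 to 6 in DN cells, 0 to 1 in DN1 cells, 0 to 1 and 0 to 7 in the control comparisons, and 0 to 1, 0 to 0 and 0 to 2 in the differences of effects. The cause of these changes was not tested.

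Probes called over all genes were 404 in thymocytes (135 in a fit of these groups alone, 165 to 521 leaving out 1 array). In DN cells they were 1273 (767 with normexp, 551 with the slide block, 512 in these groups alone, 184 without control DN arrays 1 and 2, 509 to 7985 leaving out 1 array, the highest without control DN array 3). In DN1 cells they were 40 (0 with normexp or these groups alone, 6 and 3 with the slide and replicate blocks, 19 without control DN arrays 1 and 2, 0 to 64 leaving out 1 array). Between control DN cells and thymocytes they were 406 (939 quantile, 233 scaled to probes above background, 1735 normexp, 4 slide block, 210 replicate block, 167 alone, 15 without the dim arrays, 87 to 3795 leaving out 1). Between control DN1 and DN cells they were 395 (920 quantile, 81 normexp, 169 slide block, 220 replicate block, 0 alone, 32 without the dim arrays, 1 to 1697 leaving out 1). For DN minus thymocytes they were 4 (10 quantile or alone, 7 with the stricter filter, 0 with normexp, the slide block or without the dim arrays, 0 to 115 leaving out 1), for DN1 minus thymocytes 34 (60, 54, 1, 2, 1 and 5 with quantile, other scaling, normexp, slide block, replicate block and these groups alone, 1 to 56 leaving out 1), and for DN1 minus DN cells 52 (172, 31, 0, 32, 0, 2, 1 and 3 with quantile, other scaling, normexp, no filter, slide block, replicate block, alone and without the dim arrays, 0 to 707 leaving out 1).

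No source says that a replicate number marks a shared animal. Correlations of deviations from group means were -0.408 to 0.488 (median -0.008) over 40 same-numbered pairs, 12 of them over 0.1. Over 94 other pairs they were -0.56 to 0.432 (median 0.002), 19 of them over 0.1. Between antibodies within a population, 1 of 8 same-numbered pairs and 4 of 19 other pairs were over 0.1. Of 18 arrays, 10 were most like one of the same number. The number expected without pairing was not worked out, so this does not show that numbers pair samples. With the replicate block 1 member probe was called in thymocytes.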
